A study of Homo sapiens with 32 samples.

Results

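The genes described here are 32 transcripts of the amino acid response controlled by the transcription factor ATF4, chosen by name from a table of 25066 features measured by RNA sequencing in 2 human diffuse large B-cell lymphoma lines. They comprise 4 regulators (ATF4, ATF5, CEBPB, CEBPG), 9 enzymes of serine, one-carbon and amino acid synthesis (ASNS, PHGDH, PSAT1, PSPH, SHMT2, MTHFD2, ALDH18A1, PYCR1, GPT2), 6 stress and feedback targets (CHAC1, TRIB3, DDIT4, SESN2, STC2, VLDLR) and 13 cytosolic tRNA synthetases (AARS, GARS, WARS, SARS, NARS, MARS, CARS, TARS, EPRS, IARS, LARS, VARS, YARS). All 32 were in the table. The lines were TMD8, of activated B cell type, and DOHH2, of germinal centre type. Both received 500 nM of CSKi, which inhibits the kinase CSK, or the vehicle DMSO. RNA was taken at 1, 3, 6 and 24 h, with 2 libraries in each of 16 groups and 32 libraries in all. Cells of every group, vehicle included, were Cas9 engineered and grew in advanced RPMI with glutamine and 5% FBS. Each lymphoma type is represented by 1 line, and DMSO cells of the same time are the control used here.

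Cells that run short of an amino acid, or whose protein folding is disturbed, phosphorylate the initiation factor eIF2, which lowers general translation while raising translation of the ATF4 mRNA. ATF4 pairs with C/EBP proteins on a composite DNA element and induces amino acid transporters, enzymes that make serine, glycine, asparagine and proline, and the synthetases that charge tRNAs with amino acids. Part of the control of ATF4 is therefore on protein, which RNA levels do not show. CSK restrains Src family kinases such as LYN, which relay signals of the B cell receptor, and the comparisons ask how the transcripts differ between CSKi and DMSO in each line and at each time.

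The composite element is printed for 6 members whose transcripts differed between CSKi and DMSO in TMD8 at 6 or 24 h and whose promoters hold it, so that its letters and its distance from the start can be compared. Promoters of 25 members were matched in RefSeq (GRCh38.p14), each from 250 bases before to 50 bases after the annotated start, and those of PSPH, SHMT2, PYCR1, GPT2, LARS, VARS and YARS were not matched. The letters TGATGNAA were searched on both strands, and capitals below mark each match, with TTGCATCA being the match on the strand opposite to the gene. All sequences run 5′ to 3′ on the strand of the gene.
ASNS, 250 bases before the start, chr7:97872409-97872658, minus strand: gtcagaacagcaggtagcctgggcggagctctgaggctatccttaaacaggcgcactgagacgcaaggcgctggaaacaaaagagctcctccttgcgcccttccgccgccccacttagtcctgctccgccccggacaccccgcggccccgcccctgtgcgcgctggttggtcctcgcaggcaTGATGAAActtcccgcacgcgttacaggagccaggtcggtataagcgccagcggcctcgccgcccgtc
TARS (RefSeq TARS1), chr5:33440956-33440985, plus strand: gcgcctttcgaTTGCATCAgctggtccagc
IARS (IARS1), chr9:92293692-92293721, minus strand: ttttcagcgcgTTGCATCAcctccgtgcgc
CARS (CARS1), chr11:3057407-3057436, minus strand: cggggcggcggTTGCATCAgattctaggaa
MARS (MARS1), chr12:57488053-57488082, plus strand: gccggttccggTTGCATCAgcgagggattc
NARS (NARS1), chr18:57621804-57621833, minus strand: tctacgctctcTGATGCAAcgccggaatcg

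The ASNS match begins 68 bases before the start. In the 5 synthetases printed the match begins within 15 bases of the start, 13 bases before it in IARS, 4 before in MARS and 2 before in CARS, and at base 3 after it in TARS and base 15 in NARS. Among matched promoters 8 of 25 members (32%) held TGATGNAA, against 1270 of 35116 promoters (3.62%) in the whole set. The match was in 6 of 10 synthetase promoters (60%) and in 2 of 15 promoters of other members (13.3%), the further holders being AARS and CHAC1. In these the match lies farther off, beginning 187 bases before the start in the synthetase AARS and 209 before it in CHAC1. The stricter letters TGATGCAA were in 7 of 25 member promoters (28%) and in 304 of 35116 overall (0.866%), ASNS being the member lost. A match describes letters in a window and was not tested as a binding site.

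Values are log2 normalized counts as the authors deposited them, so a difference of 1 is a 2-fold change, and levels are compared between libraries and not between genes of different length. The 12000 features with the highest mean were tested in each fit with limma, and a gene was called at a Benjamini-Hochberg adjusted p under 0.05 over all 12000. Counts of members at an unadjusted p under 0.05 are given without the share of all features at that threshold. They are therefore not read as a response. STC2, a secreted glycoprotein hormone, had 0 reads in all 16 TMD8 libraries and at most 1 read in a DOHH2 library. VLDLR, a lipoprotein receptor, had 0 to 4 reads in DOHH2 libraries. The tests therefore covered 31 members in TMD8 and 30 in DOHH2 and in the fit of both lines. In bulk RNA, fewer cells with a transcript and less of it per cell cannot be told apart, and the labels call the duplicates bio replicates without saying whether they were separate cultures, so p-values measure the spread between these libraries.

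Libraries held 12273442 to 24907030 mapped reads. All 4 B cell markers examined (CD79A, CD79B, MS4A1, PAX5) had over 10 reads in every library of both lines. IRF4 and BATF, markers of the activated type, summed to 14044 to 31968 reads in TMD8 libraries and 40 to 75 in DOHH2 libraries. MME and S1PR2, of the germinal centre type, summed to 65 to 147 reads in TMD8 libraries and 4330 to 13006 in DOHH2 libraries. The DOHH2 libraries at 24 h stood apart and went against their labels. Over the 30 members tested there, the SD of the log2 difference was 0.345 between the libraries labelled CSKi replicates 1 and 2 and 0.242 between those labelled DMSO replicates 1 and 2. It was 0.0889 between the library labelled CSKi replicate 2 and that labelled DMSO replicate 1, and 0.114 between CSKi replicate 1 and DMSO replicate 2. Duplicates of the 14 remaining groups gave 0.054 to 0.213. Results in DOHH2 are given with and without these 4 libraries, which enter its shared estimate of the spread even for earlier times.

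Under vehicle most of the genes stood lower in TMD8 than in DOHH2. Over all times and 8 DMSO libraries a line, 21 of 30 members were lower in TMD8 and 6 were higher, while 46.5% of all features tested were lower and 42.6% higher. The enzymes differed most: 7 of 9 were lower, with a median log2 difference of -2.10, against -0.04 over all features.

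**Figure D1:**
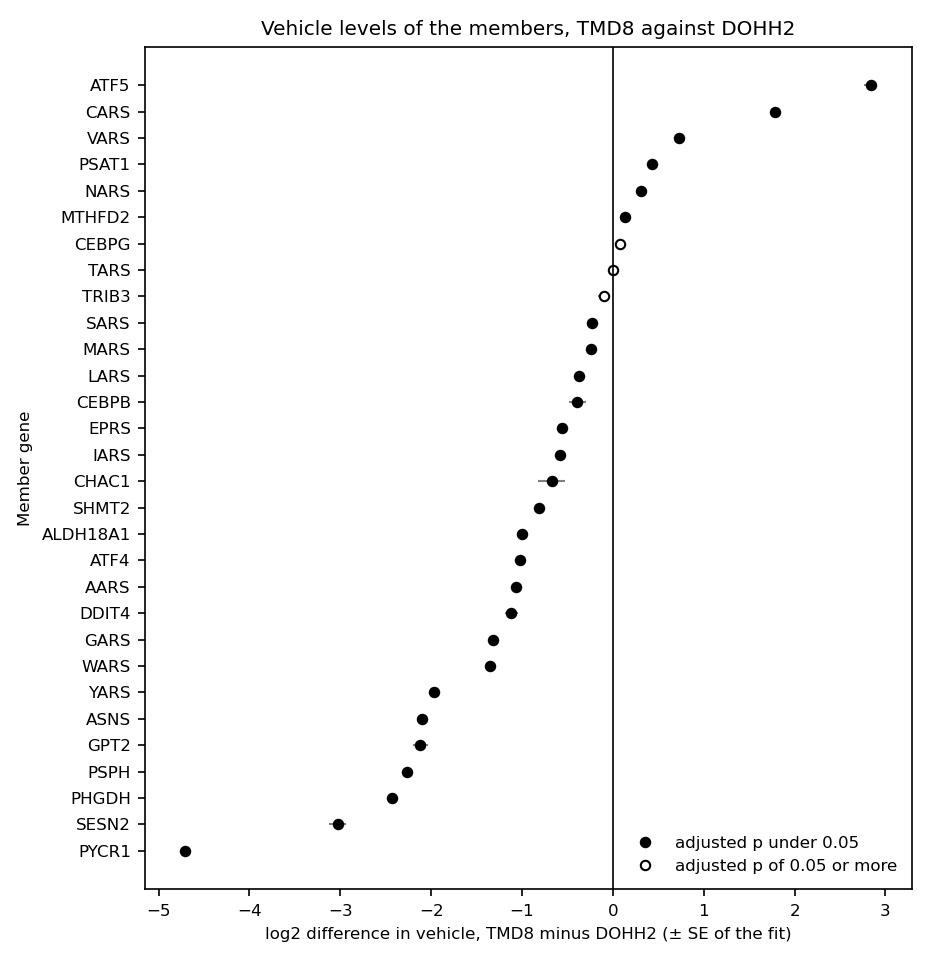
Difference in vehicle level between the lines for 30 members. Points give TMD8 minus DOHH2 in log2 units and bars the SE of the fit to all 32 libraries, with filled points past the test and open points not; PYCR1 at -4.70 and ATF5 at 2.84 lie at the ends.

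PYCR1, which makes proline in mitochondria, differed by -4.70 ± 0.06 (SE), or 26.1-fold. It had 7.15 to 8.27 log2 normalized counts in TMD8 vehicle, against 12.27 to 12.66 in DOHH2 vehicle. PHGDH, which takes the opening step of serine synthesis, and PSPH, which takes the closing one, differed by -2.43 ± 0.04 and -2.27 ± 0.03. PSPH has near-identical pseudogene copies, and the sources used here do not say how their reads were split. PSAT1, the transaminase between these steps, was higher in TMD8 by 0.43 ± 0.03. The 3 serine synthesis genes thus did not share a direction.

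ASNS, which makes asparagine, differed by -2.10 ± 0.03 (4.29-fold), and GPT2, the mitochondrial alanine transaminase, by -2.12 ± 0.08. SESN2, an inhibitor of mTORC1 that senses leucine, differed by -3.03 ± 0.09 and ATF4 by -1.02 ± 0.04. ATF5, a relative of ATF4 whose translation is controlled in the same way, was higher in TMD8 by 2.84 ± 0.07. Of the synthetases 9 of 13 were lower and 3 higher, YARS at -1.97 ± 0.02 and CARS at 1.78 ± 0.05 being the extremes. TARS, TRIB3 and CEBPG did not pass the test (differences of 0.00, -0.10 and 0.07). Without the 24 h libraries of DOHH2 the contrast covered only 1, 3 and 6 h in both lines, leaving out TMD8 vehicle at 24 h too. TARS was then lower in TMD8 (-0.10, adjusted p = 0.000385). From 1 to 24 h vehicle TARS rose by 0.50 in TMD8 and differed by 0.09 in DOHH2, so the 2 contrasts compare different times. Line and lymphoma type cannot be told apart.

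In TMD8 under vehicle alone, the transcripts moved with time in culture. The F test over the 4 times called 28 of 31 members, where 58.4% of all features were called. The members not called were WARS, MARS and TRIB3. Between 1 and 6 h changes were small and in both directions. ATF4 fell, with 12.76 and 12.66 at 6 h, against 13.01 and 13.01 at 1 h, a difference of -0.30 ± 0.05 (adjusted p = 0.000104). With PYCR1 (-0.52), AARS (-0.29) and LARS (-0.23) it made up 4 members lower at 6 h than at 1 h, where 12.4% of all features were lower. Higher at 6 h were PSAT1 (0.26), GARS (0.15), CEBPG (0.24) and DDIT4 (0.42), again 4 members, where 11.2% of features were higher.

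From 6 to 24 h the vehicle levels of nearly the whole set rose. In this comparison 28 of 31 members rose and none fell, where 20.6% of all features rose. Against 1 h, 21 of 31 rose at 24 h and none fell, where 22.8% of features rose, and the median member differed by 0.32, against -0.01 over all features. DDIT4, an inhibitor of mTORC1 induced by stress and by lack of growth factors, had 11.46 and 11.15 at 24 h, against 9.05 and 9.02 at 1 h, a rise of 2.27 ± 0.15. ATF5 had 16.41 and 16.23 at 24 h, against 14.83 and 14.92 at 1 h, a rise of 1.45 ± 0.07. PHGDH had 11.26 and 11.19, against 10.29 and 10.31, a rise of 0.92 ± 0.07. In each of these genes both 24 h libraries lay above both 1 h libraries. SHMT2, the mitochondrial serine hydroxymethyltransferase, GPT2 and SESN2 rose by 0.82, 0.82 and 0.80. PSAT1 rose by 0.57, PSPH by 0.44, TARS by 0.50, YARS by 0.36 and ASNS by 0.32. Each CSKi group below is compared with DMSO of its own time.

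**Figure D2:**
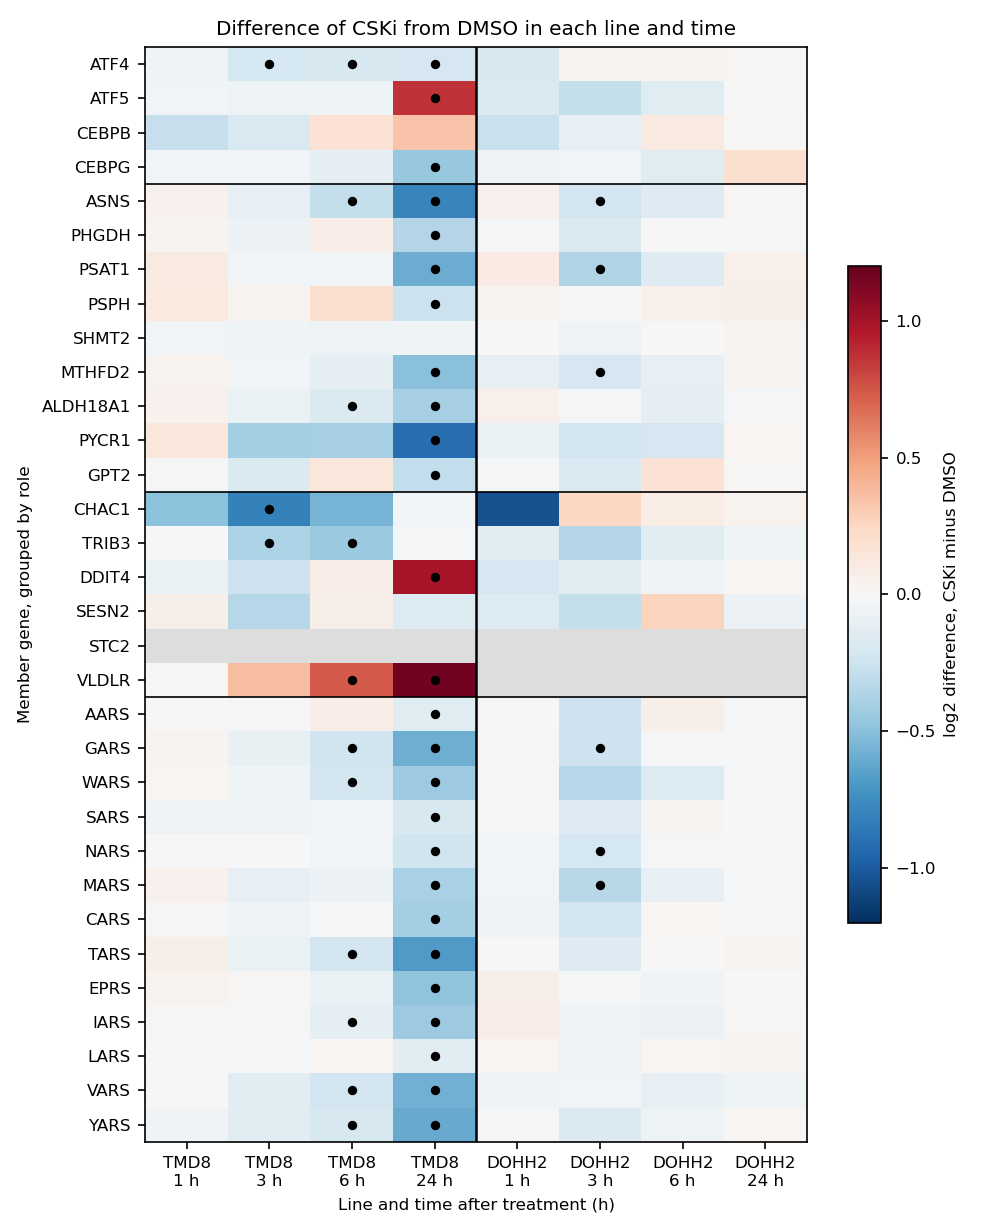
Difference of CSKi from DMSO for the 32 members, grouped by role, in each line and time. Colour gives the log2 difference (blue lower under CSKi, red higher), black dots mark adjusted p under 0.05 and grey marks members not tested; the TMD8 column at 24 h is the only one in which all 13 synthetases carry dots.

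CSKi lowered a growing share of the set in TMD8. At 1 h the test called none of 31 members, where 0.05% of features were called, and 2 members had an unadjusted p under 0.05. At 3 h 3 members fell, where 3.26% of features fell. At 6 h 10 fell and 1 rose, where 6.98% and 5.67% of features did so. At 24 h 23 fell and 3 rose, where 26.2% of features fell and 27.9% rose. The median member differed by -0.07 at 3 h, -0.07 at 6 h and -0.35 at 24 h, against 0.01 to 0.02 over all features.

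Among regulators, ATF4 fell at 3, 6 and 24 h by similar amounts. At 3 h it had 12.65 and 12.63 under CSKi, against 12.86 and 12.84 under DMSO, a difference of -0.21 ± 0.05 (adjusted p = 0.0105). At 6 h it had 12.51 and 12.54 under CSKi, against 12.76 and 12.66 under DMSO (-0.19 ± 0.05, adjusted p = 0.0119). At 24 h it had 12.87 and 12.65 under CSKi, against 13.00 and 12.92 under DMSO (-0.20 ± 0.05, adjusted p = 0.00152). The groups did not overlap at any of these times, and without CSKi replicate 2 the difference at 24 h was -0.09 (adjusted p = 0.0767). Leaving out libraries one at a time ended the call in every case at 3 h, in 3 of 4 at 6 h and in 1 of 4 at 24 h, with adjusted p up to 0.134 at 3 h and 0.213 at 6 h, the 6 h value without DMSO replicate 1.

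ATF5 behaved otherwise. Its 2 groups did not differ beyond the test at 1, 3 or 6 h (differences of -0.03, -0.06 and -0.05), and at 24 h it rose. It then had 17.37 and 17.02 under CSKi, against 16.41 and 16.23 under DMSO, a difference of 0.87 ± 0.07 (1.83-fold, adjusted p = 5.4e-11). The higher level stands on top of the rise that vehicle cells showed over the same time. CEBPG, a C/EBP protein that dimerises with ATF4, had 9.83 and 10.06 under CSKi at 24 h, against 10.39 and 10.42 under DMSO, and fell by 0.46 ± 0.08. CEBPB had 9.27 and 8.69 under CSKi, against 8.74 and 8.53 under DMSO, and its difference of 0.35 ± 0.16 missed the threshold (adjusted p = 0.0657).

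Of the stress and feedback targets, CHAC1 and TRIB3 were called at 3 h and not at 24 h. CHAC1, which degrades glutathione, had 6.15 and 6.32 under CSKi at 3 h, against 7.20 and 6.89 under DMSO, a difference of -0.81 ± 0.20 (adjusted p = 0.0158). TRIB3, a pseudokinase that feeds back on ATF4, had 9.38 and 9.44 at 3 h, against 9.78 and 9.81, a difference of -0.38 ± 0.10 (adjusted p = 0.0247). Both CSKi libraries lay below both DMSO libraries for each gene, yet leaving out 1 library ended the call in 3 of 4 fits for CHAC1 and in all 4 for TRIB3, and testing all features without a filter called neither these nor ATF4. CHAC1 rests on 32 to 97 reads per TMD8 library.

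At 6 h TRIB3 was lower with 9.19 and 9.21 under CSKi, against 9.63 and 9.65 under DMSO (-0.44 ± 0.10, adjusted p = 0.00349). CHAC1 differed by -0.56 and missed the threshold (adjusted p = 0.0723). At 24 h neither passed the test. TRIB3 had 9.98 and 9.48 under CSKi, against 9.79 and 9.71 under DMSO, and CHAC1 had 6.83 and 7.10 under CSKi, against 6.998 and 6.998 under DMSO. In both genes the CSKi duplicates lay on either side of both DMSO values. SESN2 did not pass the test at any time, with differences of 0.07, -0.35, 0.07 and -0.16 at 1, 3, 6 and 24 h.

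DDIT4 and VLDLR moved the other way. DDIT4 did not pass the test up to 6 h, and at 24 h had 12.47 and 12.12 under CSKi, against 11.46 and 11.15 under DMSO, a rise of 0.99 ± 0.15 (1.99-fold, adjusted p = 3.03e-06). VLDLR had 8.26 and 8.35 at 6 h under CSKi, against 7.57 and 7.57 under DMSO, and rose by 0.73 ± 0.15. At 24 h it had 10.15 and 9.87 under CSKi, against 9.05 and 8.65 under DMSO, and rose by 1.16 ± 0.15 (2.24-fold, adjusted p = 2.48e-07). With ATF5 these were the 3 members that rose at 24 h, and all 3 are members that vehicle cells also raised from 1 to 24 h. Vehicle cells likewise raised members that fell under CSKi at 24 h, such as PHGDH (0.92), PSAT1 (0.57), TARS (0.50) and ASNS (0.32).

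**Figure D3:**
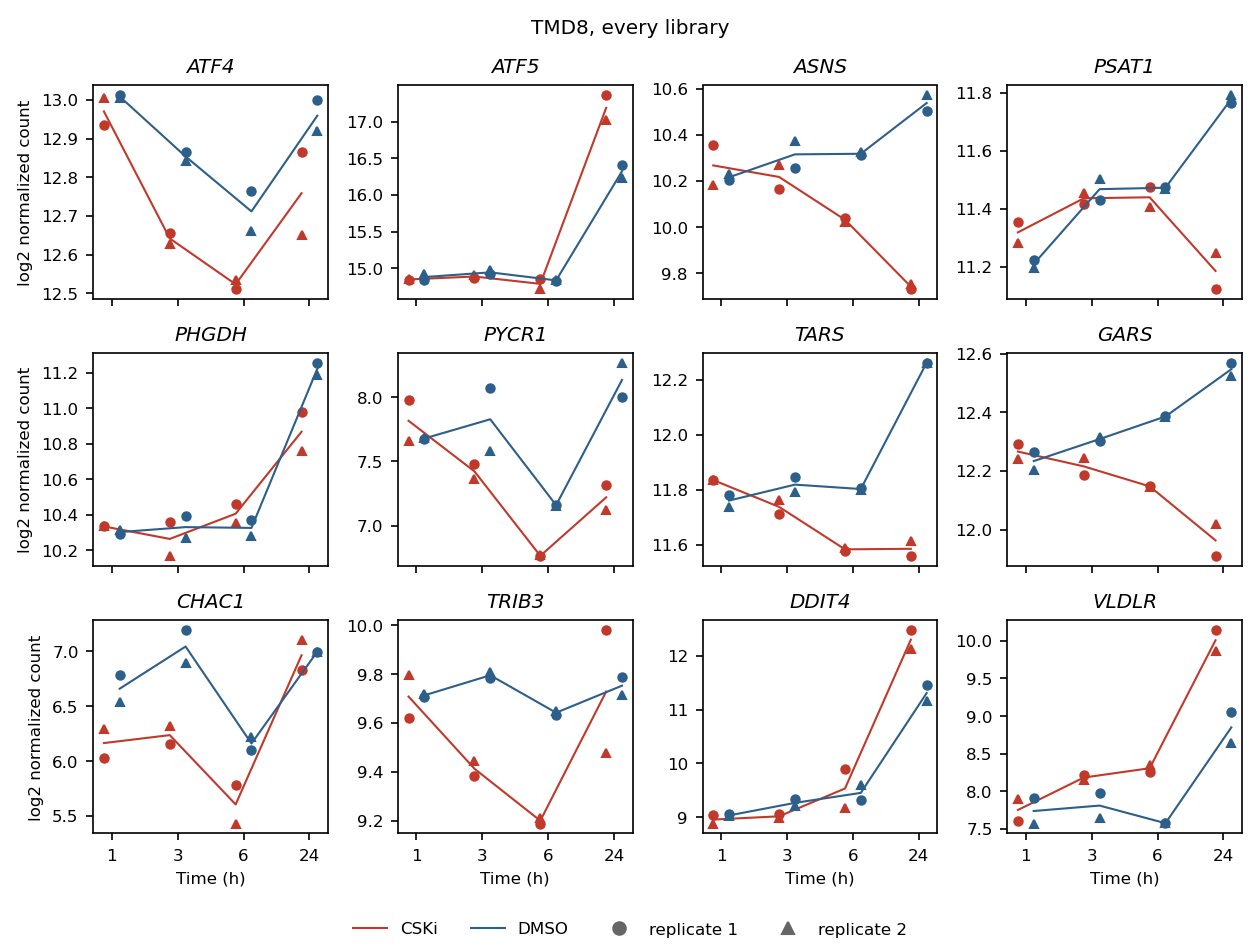
Every TMD8 library for 12 members, in log2 normalized counts by time after treatment (equally spaced). Red is CSKi and blue is DMSO, circles and triangles are replicates 1 and 2 and lines join group means. ASNS, TARS and GARS were called lower under CSKi at 6 and 24 h, while DDIT4, ATF5 and VLDLR end higher under CSKi.

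The biosynthetic enzymes fell together at 24 h, when 8 of 9 were lower and the median difference was -0.40. PYCR1 had 7.32 and 7.12 under CSKi, against 7.998 and 8.268 under DMSO, a difference of -0.91 ± 0.16 (1.88-fold, adjusted p = 2.92e-05). ASNS had 9.73 and 9.75 under CSKi, against 10.50 and 10.57 under DMSO, a difference of -0.80 ± 0.07 (1.74-fold, adjusted p = 2.2e-10). PSAT1 had 11.12 and 11.25 under CSKi, against 11.77 and 11.79 under DMSO, a difference of -0.59 ± 0.05 (adjusted p = 2.51e-10). For each, the gap between the groups was larger than that between duplicates.

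MTHFD2, the mitochondrial folate dehydrogenase of the one-carbon route, had 12.05 and 12.09 under CSKi, against 12.58 and 12.56 under DMSO, and fell by 0.50 ± 0.04. PHGDH had 10.98 and 10.76 under CSKi, against 11.26 and 11.19 under DMSO, and fell by 0.35 ± 0.07. ALDH18A1, which begins proline synthesis from glutamate, fell by 0.40, GPT2 by 0.29 and PSPH by 0.25. The call of GPT2 was lost without CSKi replicate 2 (-0.17) and without DMSO replicate 1, with adjusted p up to 0.313. That of PSPH was lost without CSKi replicate 1 and without DMSO replicate 1 (-0.21), with adjusted p up to 0.115. SHMT2 was the enzyme that did not pass, with 13.58 and 13.30 under CSKi, against 13.56 and 13.39 under DMSO. It showed no detectable difference (-0.04 ± 0.06) although vehicle cells had raised it by 0.82.

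At 6 h only ASNS and ALDH18A1 of the enzymes were called lower. The largest difference among the enzymes was that of PYCR1 (-0.39 ± 0.16), which missed the threshold (adjusted p = 0.113). At 3 h PYCR1 differed by a similar -0.41 ± 0.16 (adjusted p = 0.174). MTHFD2 at 6 h differed by -0.11 ± 0.04 and also missed it (adjusted p = 0.114). ASNS had 10.04 and 10.02 under CSKi, against 10.31 and 10.32 under DMSO (-0.29 ± 0.07, adjusted p = 0.00366), and it kept its call without any 1 library. ALDH18A1 differed by -0.18 ± 0.05 and lost its call without CSKi replicate 2 and without DMSO replicate 1 (-0.13). PSAT1 and PHGDH did not pass the test then, with differences of -0.03 ± 0.05 and 0.08 ± 0.07.

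All 13 cytosolic tRNA synthetases among the members fell at 24 h, with a median difference of -0.44 and a range of -0.68 to -0.12. TARS, the threonine enzyme, had 11.56 and 11.61 under CSKi, against 12.26 and 12.26 under DMSO, a difference of -0.68 ± 0.04 (1.60-fold, adjusted p = 9.79e-13). YARS (tyrosine) had 10.84 and 10.77, against 11.42 and 11.39, and differed by -0.60 ± 0.05. GARS (glycine) had 11.91 and 12.02, against 12.57 and 12.52, and differed by -0.58 ± 0.04. VARS (valine) had 12.84 and 12.81, against 13.38 and 13.44, and differed by -0.58 ± 0.04. The CSKi libraries lay below the DMSO libraries without overlap for all 13, a count whose share over all features is not given here. With 2 libraries a group, groups can lie apart without a call, as for SARS at 1 h (-0.06).

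The remaining synthetases at 24 h were EPRS (glutamate and proline) at -0.49, IARS (isoleucine) at -0.44, WARS (tryptophan) at -0.44, CARS (cysteine) at -0.41, MARS (methionine) at -0.39, NARS (asparagine) at -0.24, SARS (serine) at -0.19, AARS (alanine) at -0.14 and LARS (leucine) at -0.12. AARS kept its call only without CSKi replicate 1, and without CSKi replicate 2 it differed by -0.08 (adjusted p up to 0.250). LARS lost its call without CSKi replicate 1 (-0.07) and without DMSO replicate 2, with adjusted p up to 0.185. SARS was -0.12 without CSKi replicate 2 and kept its call. With ATF4, GPT2 and PSPH they were the 5 calls lost in this way, and 21 of 26 held in all 4 such fits. At 6 h 6 of 13 had already fallen. GARS had 12.15 and 12.15 under CSKi, against 12.39 and 12.38 under DMSO (-0.24 ± 0.04), and VARS had 13.05 and 13.00, against 13.25 and 13.25 (-0.23 ± 0.04). TARS had 11.58 and 11.59, against 11.80 and 11.80 (-0.22 ± 0.04). WARS had 11.58 and 11.57, against 11.81 and 11.77 (-0.22 ± 0.04). YARS had 10.85 and 10.82, against 11.04 and 11.02 (-0.19 ± 0.05). These 5 and IARS (-0.12) fell at 6 h, though YARS and IARS lost the call in all 4 fits that left out a library.

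**Figure D4:**
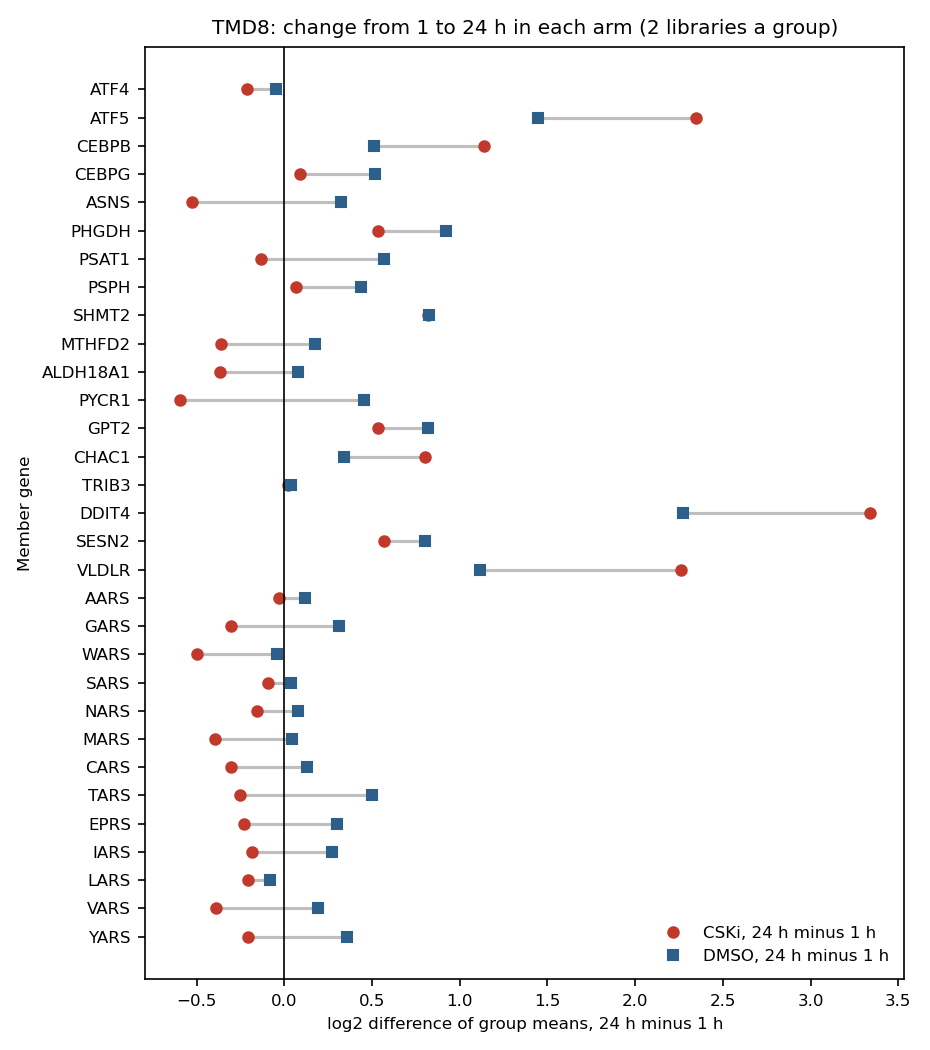
Change from 1 to 24 h within each TMD8 arm for 31 members, as log2 differences of group means (2 libraries each). Red circles are CSKi and blue squares DMSO. By sign alone, with some points near 0, the CSKi point is below 0 and the DMSO point above it for 16 members. Among them are 11 of 13 synthetases, while DDIT4 reached 3.34 under CSKi and 2.27 under DMSO.

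The arms of TMD8 were also set side by side from 1 to 24 h, by the sign of the change and without a share over all features. Group means of 16 of 31 members were lower at 24 h than at 1 h under CSKi and higher under DMSO, and 12 were higher in both. Among the 16, the DMSO rises of ALDH18A1, AARS, SARS, NARS and MARS (0.04 to 0.12) did not pass the vehicle test. AARS changed by only -0.03 under CSKi. ASNS changed by -0.53 under CSKi and by 0.32 under DMSO, TARS by -0.25 and 0.50, and PYCR1 by -0.60 and 0.46. PHGDH was higher at 24 h in both arms, by 0.53 under CSKi and 0.92 under DMSO, and GPT2 by 0.54 and 0.82. The changes under CSKi are differences of group means with no test of their own. The F test of whether the CSKi difference changed over the 4 times called 22 of 31 members, where 39.4% of features were called, and the 9 not called were ATF4, CEBPB, SHMT2, GPT2, CHAC1, SESN2, AARS, SARS and LARS. For ATF4 the difference thus was not shown to change with time.

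Neighbouring genes of the same pathways in TMD8 at 24 h did not all move alike, where 26.2% of all features fell and 27.9% rose. Of the other cytosolic synthetases and their scaffold 6 of 8 tested fell and none rose (median -0.32), led by FARSB (-0.66), KARS (-0.34) and FARSA (-0.32), the phenylalanine and lysine enzymes. Of mitochondrial synthetases 6 of 17 fell and 2 rose, with a median of -0.02. Of other one-carbon and proline enzymes 11 of 14 fell and 1 rose (median -0.25), with the thymidylate synthase TYMS (-0.69), MTHFD1 (-0.47) and MTHFD1L (-0.71) lower. The gene that rose was AMT (1.05), of the glycine cleavage system, named after its value was seen. Of the eIF2 kinases, eIF2 and eIF2B subunits and eIF2 phosphatase subunits 7 of 15 fell and 2 rose, with EIF2S1 at -0.50 and EIF2S2 at -0.41, both subunits of eIF2, and EIF2B3 at -0.43.

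Of other reported ATF4 targets in TMD8 at 24 h 7 of 19 fell and 5 rose, where 26.2% and 27.9% of all features did so, and their median was -0.05. FAM129A fell (-0.82), whereas KLHL24 (0.90) and VEGFA (0.77), the growth factor of blood vessels, rose. Of genes named after their values were seen, the leucine transporter SLC7A5 (0.32) and the stress factor DDIT3 (0.69) were higher and the glutamine transporter SLC1A5 (-0.36) was lower. At 6 h 4 of the 19 fell and 3 rose, where 6.98% and 5.67% of features did, with the arginine transporter SLC7A1 at -0.59, SLC1A5 at -0.27 and the transcription factor JDP2 at 0.48. In vehicle from 1 to 24 h 11 of the 19 rose and 1 fell, where 22.8% and 23.9% of features did.

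Other measures moved with the 24 h comparison in TMD8. The 4 B cell markers summed to 3943 to 4141 CPM (counts scaled to library size) under CSKi, against 2981 to 3036 under DMSO. Of 4 fibroblast and epithelium markers 3 had over 10 reads in every TMD8 library, and the 4 (COL1A1, COL1A2, EPCAM, KRT8) summed to 46.7 to 51.2 CPM under CSKi, against 19.0 to 19.9 under DMSO. T and NK cell markers summed to 4 to 12 reads and myeloid markers to 3 to 13 reads in any TMD8 library. IRF4 and BATF, of the activated type, summed to 981 to 1010 CPM under CSKi, against 1510 to 1541 under DMSO. MME and S1PR2, of the germinal centre type, summed to 8.53 to 9.06 CPM under CSKi, against 4.92 to 6.46 under DMSO. The part of these in the results was not tested.

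In DOHH2 vehicle some of the genes stood above their 1 h level at 3 h and some at 24 h. The F test over time called 20 of 30 members, where 29.3% of features were called, and without the 24 h libraries 24 of 30, where 52.8% were. At 3 h 9 members stood above 1 h and 3 below, where 7.59% and 6.27% of features did. PSAT1 had 11.41 and 11.42 at 3 h, against 10.89 and 10.85 at 1 h, a rise of 0.55 ± 0.07. GARS had 13.94 and 13.92, against 13.57 and 13.50, a rise of 0.40 ± 0.04. ASNS, MTHFD2, NARS, MARS, WARS, CARS and ATF5 were the others that rose, by 0.32, 0.27, 0.31, 0.18, 0.38, 0.40 and 0.62. PSPH (-0.26), LARS (-0.14) and CHAC1 (-1.21) fell. At 24 h 10 members stood above 1 h and ATF4 (-0.30) below, where 5.84% and 6.03% of features did. The 10 were ASNS (0.28), PSAT1 (0.33), SHMT2 (0.16), DDIT4 (0.48), AARS (0.28), GARS (0.21), NARS (0.30), MARS (0.18), EPRS (0.18) and IARS (0.23). From 6 to 24 h 10 rose and none fell, where 3.35% of features rose. These values use the DOHH2 24 h libraries, whose labels are in doubt, and the vehicle courses of the lines were not tested against each other.

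CHAC1 and ATF4 went down over the early hours in DOHH2 vehicle. CHAC1 had 6.07 and 6.07 at 6 h, against 8.56 and 8.62 at 1 h, a fall of 2.52 ± 0.34 (5.72-fold, adjusted p = 0.000476). ATF4 had 13.66 and 13.64 at 6 h, against 14.19 and 14.15 at 1 h, a fall of 0.52 ± 0.08. Of the 8 enzymes and synthetases above 1 h at 3 h, NARS (0.22) alone passed the test at 6 h, and PSAT1 then had 10.80 and 10.69 and GARS 13.57 and 13.53.

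**Figure D5:**
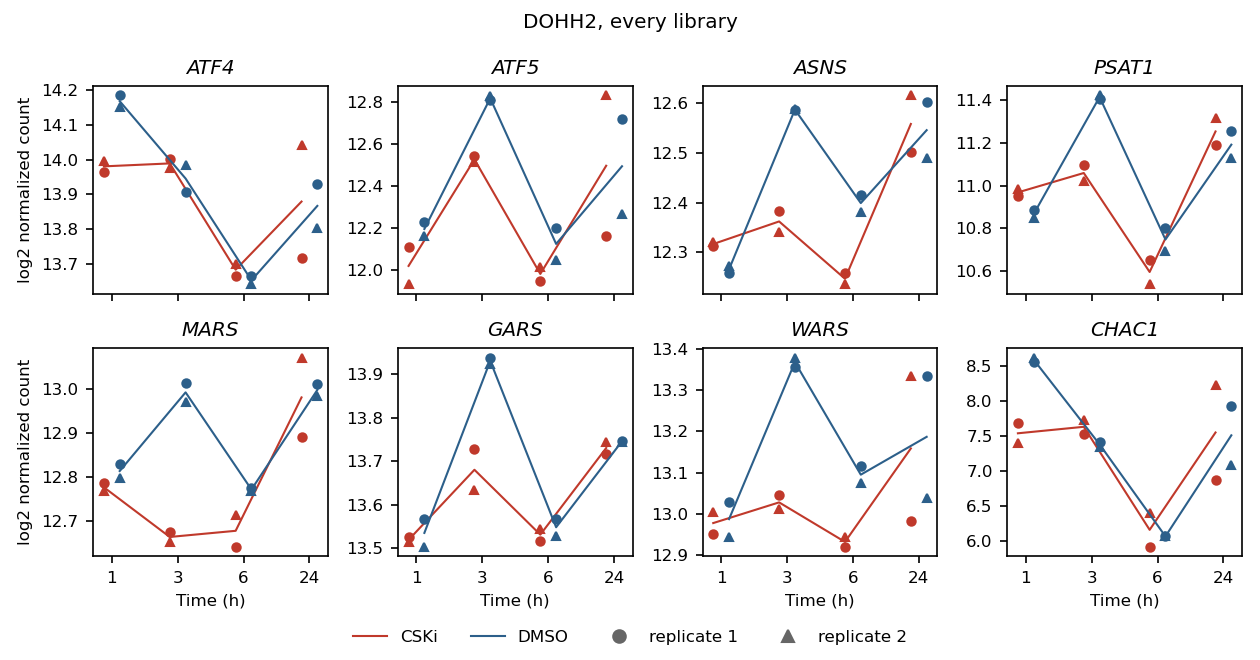
Every DOHH2 library for 8 members, in log2 normalized counts by time after treatment (equally spaced). Red is CSKi and blue is DMSO, circles and triangles are replicates 1 and 2 and lines join group means; at 3 h ASNS, PSAT1, MARS, GARS and WARS are lower under CSKi, and at 24 h the duplicates of WARS, ATF5 and CHAC1 lie far apart in each arm.

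In DOHH2 at 3 h 3 of 9 enzymes and 3 of 13 synthetases were lower under CSKi. They were the 6 of 30 members that stood below DMSO, and none stood above it, where 1.39% of features were lower and 1.23% higher. Of all 30 differences 27 were below 0, with a median of -0.17. PSAT1 had 11.10 and 11.02 under CSKi, against 11.41 and 11.42 under DMSO, a difference of -0.36 ± 0.07 (adjusted p = 0.0145). MARS had 12.68 and 12.65, against 13.02 and 12.97, a difference of -0.33 ± 0.05 (adjusted p = 0.00679). GARS had 13.73 and 13.63, against 13.94 and 13.92, a difference of -0.25 ± 0.04 (adjusted p = 0.0105). The groups did not overlap for any of these genes. Group means at 3 h were also set against 1 h in the same arm, with no test of their own. Under CSKi GARS (0.16), MTHFD2 (0.16), NARS (0.13), PSAT1 (0.09) and ASNS (0.05) stood above 1 h and MARS (-0.11) below. Under DMSO all 6 stood above 1 h, by 0.40, 0.27, 0.31, 0.55, 0.32 and 0.18 in the same order. The 6 were picked by their difference from these same DMSO libraries at 3 h. The larger rise under DMSO thus partly restates that choice.

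ASNS had 12.38 and 12.34 under CSKi at 3 h, against 12.59 and 12.59 under DMSO (-0.23 ± 0.05, adjusted p = 0.0323). NARS had 12.36 and 12.28, against 12.54 and 12.53 (-0.21 ± 0.05, adjusted p = 0.0266), and MTHFD2 had 12.38 and 12.30, against 12.54 and 12.54 (-0.20 ± 0.04, adjusted p = 0.0276). Leaving out any 1 of the 4 libraries at 3 h left 0 or 1 of the 6 called. Without the 24 h libraries, which lowers the estimate of spread and leaves the differences as they are, 18 of 30 fell, where 7.28% of features fell. These were 9 synthetases, led by WARS (-0.34, adjusted p = 1.12e-07), 6 enzymes, TRIB3 (-0.35), SESN2 (-0.28) and ATF5 (-0.29). ATF4 was not among them, with 14.00 and 13.97 under CSKi, against 13.91 and 13.98 under DMSO, and CHAC1, with 7.54 and 7.73, against 7.42 and 7.34, was called in neither fit.

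At 1 h none of the 30 members was called in DOHH2, where 0.375% of features were, and 4 had an unadjusted p under 0.05. Without the 24 h libraries 3 fell, where 1.21% of features fell. CHAC1 had 7.68 and 7.40 under CSKi, against 8.56 and 8.62 under DMSO, and fell by 1.05 ± 0.16 (2.07-fold, adjusted p = 0.000132). ATF4 had 13.96 and 14.00, against 14.19 and 14.15, and fell by 0.19 ± 0.03 (adjusted p = 0.000526). DDIT4 had 10.60 and 10.47, against 10.76 and 10.72, and fell by 0.20 ± 0.05 (adjusted p = 0.0388). CSKi libraries lay below DMSO libraries in all 3 genes. For CHAC1 and ATF4 the CSKi values at 1 h lay close to the DMSO values at 3 h. Those were 7.42 and 7.34 for CHAC1 and 13.91 and 13.98 for ATF4. DDIT4 was otherwise, its DMSO mean at 3 h standing above that at 1 h by 0.09 while CSKi at 1 h lay below. This likeness between times was not tested. In TMD8 at 1 h CHAC1 also lay lower under CSKi (-0.50 ± 0.20), without being called. Its line difference at 1 h was not called in the fit of all libraries (0.55 ± 0.42).

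At 6 h none was called, where 0.883% of features were, and 4 members had an unadjusted p under 0.05. Without the 24 h libraries 4 fell (PYCR1 by 0.20, WARS by 0.16, ASNS by 0.15 and ALDH18A1 by 0.11) and 2 rose (SESN2 by 0.27 and GPT2 by 0.18), where 6.67% of features fell and 6.97% rose. At 24 h none of 30 was called and none had an unadjusted p under 0.05, where 0.0% of all features were called. Group differences there ran from -0.075 to 0.19. CHAC1 had 6.87 and 8.23 in the libraries labelled CSKi, against 7.93 and 7.08 in those labelled DMSO, and SESN2 had 9.84 and 10.65, against 10.55 and 10.09. In both genes the library labelled CSKi replicate 1 and that labelled DMSO replicate 2 were the low pair.

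The F test of change in the CSKi difference over time called none of 30 members in DOHH2, where 0.2% of features were called, with 8 members at an unadjusted p under 0.05. Without the 24 h libraries it called 12, where 8.1% of features were called. For CHAC1 the CSKi difference at 3 h lay above that at 1 h by 1.30, and for ATF4 by 0.23, while for PSAT1 it lay below by 0.46, for WARS by 0.33 and for MARS by 0.29. Among ATF4 targets outside the set, 4 of 17 tested fell at 3 h and none rose, where 1.39% and 1.23% of features did, among them SLC7A5 (-0.44), JDP2 (-0.81) and the serine transporter SLC1A4 (-0.44). Of the 15 genes of the eIF2 list 1 rose at 3 h, 1 rose at 6 h and 1 fell at 1 h, where 1.23%, 0.317% and 0.317% of features did so. EIF2AK3, the eIF2 kinase of the endoplasmic reticulum, was higher at 3 and 6 h by 0.60 and 0.60, and PPP1R15A, a stress-induced subunit of the eIF2 phosphatase, was lower at 1 h by 0.53.

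The response was then compared between lines, as the TMD8 difference minus the DOHH2 difference. At 1 h none of 30 members differed, where 0.142% of features did, and 1 had an unadjusted p under 0.05. At 3 h 2 differed, where 1.26% of features did. PSAT1 (0.33 ± 0.08) changed by -0.03 in TMD8 and -0.36 in DOHH2, and NARS (0.21 ± 0.05) by -0.01 and -0.21. Both calls were lost with median of ratios scaling (0.31 and 0.19), and that of PSAT1 also with quantile normalization (0.33) and without the filter. At 6 h GARS alone differed (-0.22 ± 0.06), where 2.08% of features did, with -0.24 in TMD8 and -0.02 in DOHH2, a call lost with quantile normalization (-0.21) and without the filter. Leaving out 1 library left at most 1 member called at 3 h and at most 1 at 6 h.

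Without the 24 h libraries of DOHH2 6 members differed at 3 h, where 4.8% of features did, and 2 at 6 h, where 5.96% did. ATF4 (-0.26, adjusted p = 0.0286) and CHAC1 (-1.06, adjusted p = 0.0155) were then lower in TMD8 at 3 h, and PSAT1, NARS, MARS (0.23) and WARS (0.29) were lower in DOHH2. At 6 h GARS and TARS (-0.21, adjusted p = 0.0248) were lower in TMD8. With those libraries ATF4 and CHAC1 did not pass this test at 3 h (adjusted p = 0.300 and 0.298).

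At 24 h 21 of 30 members differed between lines, 19 lower and 2 higher in TMD8, where 32.6% of features differed. PYCR1 (-0.94 ± 0.16), ASNS (-0.81 ± 0.08), TARS (-0.71 ± 0.06) and PSAT1 (-0.66 ± 0.08) had the largest negative values, and DDIT4 (0.96 ± 0.21) and ATF5 (0.87 ± 0.20) were those higher in TMD8. This test takes the DOHH2 24 h libraries as labelled, and with their labels in doubt it sets the TMD8 differences against an uncertain group.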

How the data were processed

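RNA of 32 libraries was sequenced (stranded mRNA libraries, per the labels' protocols) and counted with HTSeq on hg19, per the submitters' processing notes. Of the aligner and the strand setting nothing is said in the sources used here. The deposited table holds log2 values of normalized counts for 25066 features, and the authors' scaling was kept. Whole reads were recovered from the steps between low values, 99.6 to 100% of values up to 300 reads being within 0.1 of a whole number; read counts here are these recovered reads. Because the table holds no counts, limma 3.58.1 (R 4.3.3) was fitted to the log2 values (group means, empirical Bayes with intensity trend, two-sided) in place of a count test, per line and over both lines, with Benjamini-Hochberg adjustment over 12000 features. The fit was tested on simulated data. The lowest mean tested was 20.6 reads in TMD8, 14.5 in DOHH2 and 15.3 over both lines.

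The members and lists were chosen with earlier results of these data known. All 32 members are accounted for. Values by library are given for members called with non-overlapping groups, up to 8 per direction, and always for ATF4, ASNS, PHGDH, PSAT1, CHAC1, TRIB3 and DDIT4. Of each other list up to 3 called genes with the smallest p are named per comparison. Some genes of these lists are not reported here, and list counts leave them out. Promoters are shown for up to 6 called members with the motif. Alternatives covered the filter, a pseudocount of 1, quantile and median of ratios scaling, voom on recovered reads, a replicate block, a 1.5-fold minimum, and left-out libraries. Tables were made with Python 3.11.15, pandas 2.3.3 and numpy 2.4.6.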

Additional observations from a re-analysis of the deposited data

Results flagged for a closer look

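The following values drew attention because an effect of CSKi differed between the lines or changed between times, by limma's test of that difference. The TMD8 response minus the DOHH2 response at 3 h was 0.33 for PSAT1 and 0.21 for NARS, and at 6 h it was -0.22 for GARS. At 24 h it was called for 21 members, using DOHH2 libraries whose labels are in doubt. Among synthetases it was GARS (-0.57), WARS (-0.41), NARS (-0.24), MARS (-0.38), CARS (-0.38), TARS (-0.71), EPRS (-0.49), IARS (-0.45), LARS (-0.15), VARS (-0.52) and YARS (-0.62). Among the other members it was ATF5 (0.87), ASNS (-0.81), PSAT1 (-0.66), PHGDH (-0.34), PSPH (-0.33), MTHFD2 (-0.53), DDIT4 (0.96), CEBPG (-0.65), ALDH18A1 (-0.38) and PYCR1 (-0.94).

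In TMD8 the F test over time called a changing response for 22 members, whose response at 24 h minus that at 1 h was as follows. Among synthetases it was GARS (-0.62), WARS (-0.46), NARS (-0.23), MARS (-0.44), CARS (-0.43), TARS (-0.75), EPRS (-0.53), IARS (-0.46), VARS (-0.58) and YARS (-0.56). Among the other members it was ATF5 (0.90), ASNS (-0.85), PSAT1 (-0.70), PHGDH (-0.39), PSPH (-0.37), MTHFD2 (-0.54), TRIB3 (-0.019), DDIT4 (1.07), CEBPG (-0.43), ALDH18A1 (-0.45), PYCR1 (-1.05) and VLDLR (1.15). For TRIB3 the response minus that at 1 h was -0.38 at 3 h and -0.44 at 6 h, and near 0 at 24 h. Neither earlier value passed its own limma test (adjusted p = 0.247 and 0.0704). The response at 24 h minus that at 6 h did (0.42, adjusted p = 0.0285). No explanation of these differences was tested.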

How the results depend on the processing

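The counts of members called moved as follows. Requiring at least 1.5-fold left 1 of 3 in TMD8 at 3 h, 1 of 11 at 6 h and 8 of 26 at 24 h, 7 of 28 in the TMD8 vehicle course and 8 of 22 in its response course. The same minimum left 0 of 6 in DOHH2 at 3 h, 2 of 20 in its vehicle course, and 0 of 2, 0 of 1 and 8 of 21 for the line difference at 3, 6 and 24 h. Without the DOHH2 24 h libraries DOHH2 had 3 called at 1 h (0 with them), 18 at 3 h (6), 6 at 6 h (0) and 12 in its response course (0), and the line difference had 6 at 3 h (2) and 2 at 6 h (1). Without the filter 0 were called in TMD8 at 3 h, 1 in the line difference at 3 h and 0 at 6 h. Median of ratios scaling gave 0 in the line difference at 3 h, and quantile normalization gave 0 at 6 h. Leaving out 1 library gave 0 to 2 in TMD8 at 3 h, 7 to 9 at 6 h, 0 to 1 in DOHH2 at 3 h, 0 to 8 in its response course, and 0 to 1 in the line difference at 3 h and at 6 h. The sign of TRIB3 in TMD8 at 24 h (-0.02) turned without CSKi replicate 2, its range being -0.28 to 0.23. Causes of these moves were not tested. Other counts stayed within 1.5 times the main count.

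Same-numbered libraries did not deviate together, with correlations of 0.068, -0.005, 0.036 and 0.166 in TMD8 and 0.027, 0.028, 0.049 and -0.476 in DOHH2 at 1, 3, 6 and 24 h. With a replicate block 27 members were called in TMD8 at 24 h, 7 in DOHH2 at 3 h and 0 in the line difference at 3 h. With 2 libraries a group, small differences are not detectable, and CHAC1 rests on 32 to 97 reads per TMD8 library. How reads of near-identical copies of PSPH were split is not said in the sources used here.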
